A study of Mus musculus with 18 samples.

Results

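Collagens are the main structural proteins of the extracellular matrix, and each collagen molecule is a helix wound from chains that are the products of separate genes. The chains examined here were all genes whose single symbol in the array annotation is Col, an integer, the letter a and an integer. There were 42 such genes among the 18194 genes that the array names by a single symbol, and they were covered by 82 probe sets. Each chain was represented by 1 probe set, the brightest by its mean over the 18 arrays. Of the 42 chains, 31 passed a filter on dim signal and were tested, among 13679 tested genes in all. The filter asked that the probe set lie above the 40th percentile of its array on at least 3 arrays.

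Fibroblasts are the main producers of fibrillar collagen, and transforming growth factor β1 (TGF-β1) is a well-known inducer of matrix genes in them. Fibrillar collagens form the load-bearing fibrils, type IV collagen forms the sheet of the basement membrane, and type VI forms beaded microfibrils. Fibril-associated collagens sit on the surface of fibrils, and the short-chain collagens of types VIII and X form open networks. NFI-C, encoded by Nfic, is a transcription factor of the nuclear factor I family.

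Total RNA from primary mouse embryonic fibroblasts was hybridised to 18 Affymetrix arrays, in 6 groups of 3. Of the 6 embryos, 14 days old and used without head and liver, 3 were labelled NFI-C knock-out and 3 wild type (WT). Each culture was held for 4 to 6 h in DMEM with AlbuMAX II, insulin, transferrin and selenium and then left untreated or given TGF-β1 at 12.5 ng/ml for 1 h or 10 h. The 6 groups were therefore labelled knock-out (KO) untreated, KO with 1 h and KO with 10 h of TGF-β1, and WT untreated, WT with 1 h and WT with 10 h. Which part of Nfic was deleted is not stated in the labels, and no culture left untreated for 10 h was analysed here, so treatment and time in culture cannot be told apart at 10 h. The comparisons ask which chains respond early or late to TGF-β1, and whether the response differs with the NFI-C genotype.

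Several checks on the arrays bear on all values below, which are log2 signals or differences of log2 signals. The Nfic probe set read 10.43, 9.89 and 10.72 on the KO-labelled untreated arrays, against 10.51, 10.36 and 10.49 on the WT untreated arrays. It was not lower in the KO-labelled cells (-0.10 ± 0.16 SE, limma adjusted p = 1.00), and the part of the gene that it probes was not known, so KO means labelled knock-out throughout. TGF-β1 response genes did respond: 5 of 6 rose at 10 h in both genotypes, Smad7 by 1.11 in KO and 1.28 in WT. Deviations from the group mean were shared by arrays of the same embryo number between untreated and 1 h (r from 0.592 to 0.763 across genes, which are not independent replicates). Between untreated and 10 h they were shared in KO (r from 0.282 to 0.388) and for WT embryo 1 (0.487), but not for WT embryos 2 (-0.064) and 3 (-0.204). With the WT 10 h arrays numbered 2 and 3 exchanged, the correlations were 0.439 and 0.382. Group means and the tests between groups do not use these numbers. Embryo means, fits with the embryo as a block and fits that leave out an embryo do use them. KO and WT arrays of the same number come from different embryos, and their deviations correlated at 0.346, 0.541 and 0.073 for numbers 1 to 3 untreated, 0.472, 0.487 and 0.104 at 1 h, and 0.135, -0.198 and -0.024 at 10 h. Shared deviations were thus not particular to arrays of one embryo. The 12 fibroblast markers were all tested, and their mean level lay between 10.15 and 10.36 on KO untreated arrays and between 10.38 and 10.61 on WT untreated arrays. The 14 macrophage markers were also all above the filter, with a mean level of 8.09 to 9.88 on KO untreated arrays and 8.92 to 10.6 on WT untreated arrays. In these bulk samples, fewer cells of a type and less RNA per cell cannot be told apart.

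By type, 10 of 11 fibrillar chains were tested, 4 of 6 basement membrane chains, 3 of 5 beaded chains, 7 of 9 fibril-associated chains and all 3 network chains. Among 8 other chains, which include the anchoring fibril chain Col7a1, the membrane-spanning chains and the multiplexins, 4 were tested. The 11 chains that were not tested were Col24a1, Col4a3, Col4a4, Col6a4, Col6a5, Col9a2, Col19a1, Col13a1, Col17a1, Col23a1 and Col26a1. Their single values ran from 3.09 to 4.24, and only Col23a1 was above the filter on any array, on 1 of 18.

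After 10 h of TGF-β1 some chains rose and some fell, and no test was run over the chains as a class. In KO cells 9 of 31 chains passed the test (limma, Benjamini-Hochberg adjusted p under 0.05), against 34.7% of all tested genes, and in WT cells 9 of 31 passed, against 33.7% of all tested genes. Each 9 was 29.0% of the tested chains, near the share over all genes. In each genotype 7 chains were higher and 2 were lower. The KO count includes Col11a2, which reached the filter only on 10 h arrays. Without it 8 of 30 chains passed in KO (26.7%, 6 higher and 2 lower) and 9 of 30 in WT (7 higher and 2 lower), a count chosen after seeing the data. Over all genes 13.9% were higher and 20.7% lower in KO, and 14.9% were higher and 18.8% lower in WT. The median difference of the 31 chains was 0.06 in KO and 0.12 in WT, beside -0.03 in KO and 0.01 in WT over all tested genes. The 10 h and untreated arrays did not overlap for 9 chains in KO (45.1% of all tested genes) and for 9 in WT (44.3% of all tested genes). All 31 chains had the same sign in both genotypes, and 8 chains passed in both. How many of all tested genes did so was not counted, so neither count can be called particular to the chains. The 8 were Col8a2, Col5a3, Col27a1, Col7a1, Col6a3 and Col8a1, all higher, and Col11a1 and Col4a5, both lower.

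**Figure D1:**
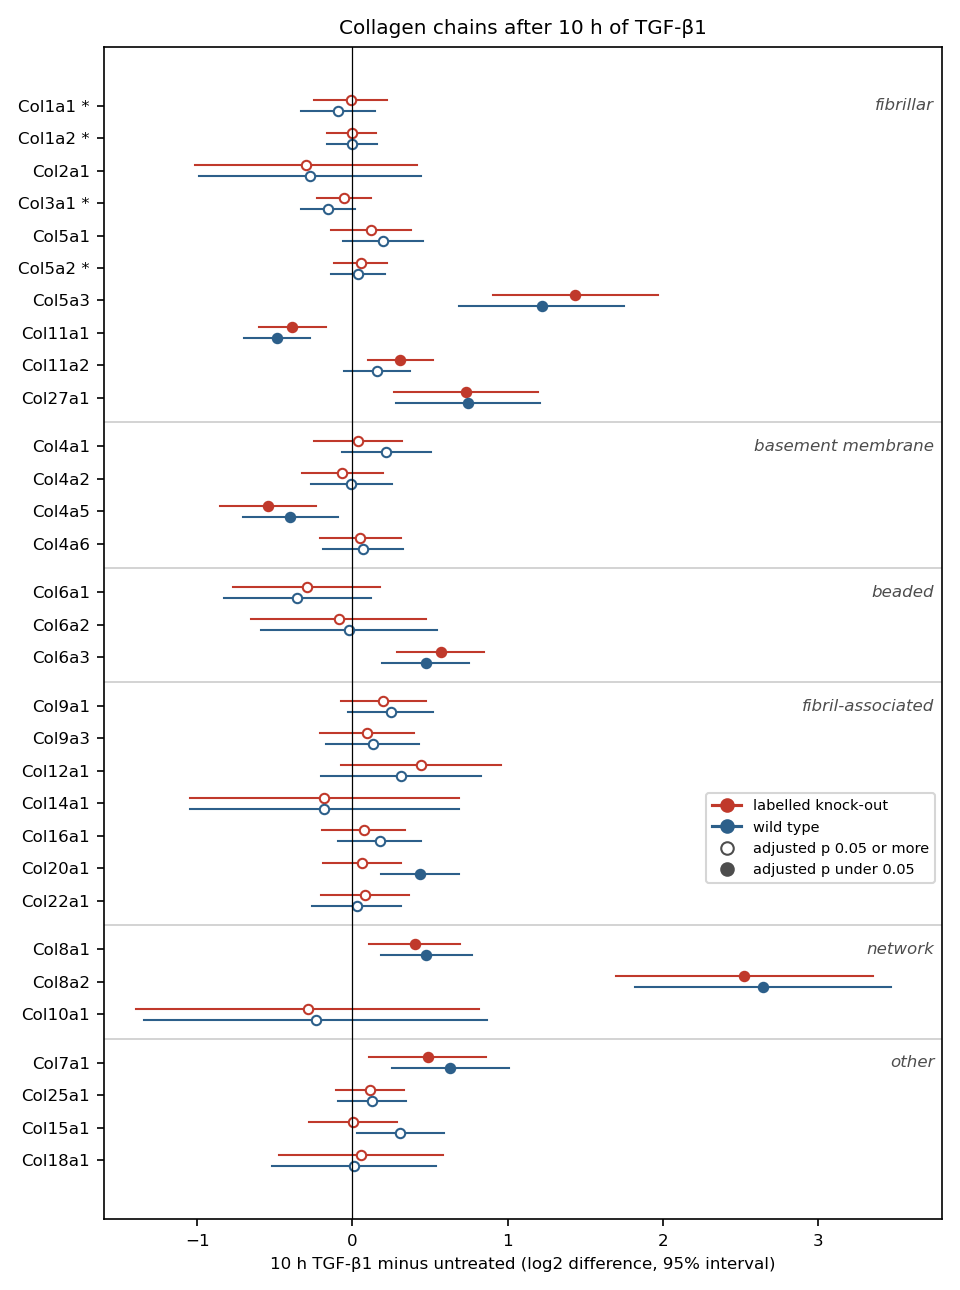
Log2 difference of each of the 31 tested chains after 10 h of TGF-β1 relative to untreated cells, grouped by collagen type, with KO above WT in each row. Points are the estimates and bars the 95% intervals (3 arrays a group), filled points passed the test, and an asterisk marks the 4 chains near the top of the array's range; Col8a2 and Col5a3 lie farthest to the right, and the 4 asterisked chains lie between -0.16 and 0.05.

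For the 2 chains with the largest rise and the 2 that fell in both genotypes, the 250 bases before the annotated start of the gene are shown, because they are the region in which binding sites of the factors in this study would first be looked for. Sequences are from RefSeq (mouse build GRCm38.p6), written 5′ to 3′ on the strand of the gene. Capitals mark matches, on either strand, to the NFI recognition letters TTGGC or to the SMAD-binding letters CAGAC. The windows are chr4:126286544-126286793 on the plus strand for Col8a2 and chr9:20815068-20815317 on the minus strand for Col5a3, both of which rose. They are chr3:114030290-114030539 on the plus strand for Col11a1 and chrX:141475169-141475418 on the plus strand for Col4a5, both of which fell.
Col8a2: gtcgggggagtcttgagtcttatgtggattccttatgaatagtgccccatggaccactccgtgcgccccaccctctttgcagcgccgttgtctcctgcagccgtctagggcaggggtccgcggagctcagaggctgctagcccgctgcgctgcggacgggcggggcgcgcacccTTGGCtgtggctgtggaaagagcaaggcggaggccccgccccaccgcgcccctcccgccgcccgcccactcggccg
Col5a3: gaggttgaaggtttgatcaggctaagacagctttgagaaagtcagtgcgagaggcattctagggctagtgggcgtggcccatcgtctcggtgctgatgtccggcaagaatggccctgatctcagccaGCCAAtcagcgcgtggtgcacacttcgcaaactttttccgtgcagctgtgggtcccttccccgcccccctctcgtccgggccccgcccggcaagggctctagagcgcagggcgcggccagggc
Col11a1: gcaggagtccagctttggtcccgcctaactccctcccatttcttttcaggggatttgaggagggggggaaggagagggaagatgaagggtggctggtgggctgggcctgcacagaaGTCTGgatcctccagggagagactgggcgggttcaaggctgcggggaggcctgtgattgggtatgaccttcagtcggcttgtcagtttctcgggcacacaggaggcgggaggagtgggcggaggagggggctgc
Col4a5: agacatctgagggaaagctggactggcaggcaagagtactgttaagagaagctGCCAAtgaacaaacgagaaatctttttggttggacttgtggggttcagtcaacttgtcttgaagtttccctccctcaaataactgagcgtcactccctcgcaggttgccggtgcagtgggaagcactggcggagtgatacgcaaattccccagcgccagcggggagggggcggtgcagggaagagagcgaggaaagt

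The Col8a2 window held 1 TTGGC match at -76 to -72 relative to the start, the Col5a3 window 1 at -123 to -119, and the Col4a5 window 1 at -197 to -193. The Col11a1 window held 1 CAGAC match at -134 to -130 and no TTGGC match. Over the 33 chains with a RefSeq window, 13 held TTGGC and 15 held CAGAC, while 41.5% and 42.2% of all 32851 windows in the RefSeq table did. Among the 8 chains that passed in both genotypes, 4 held TTGGC and 5 held CAGAC. The full palindromic NFI site, TTGGC and GCCAA with 5 bases of any kind between them, overlaps a TTGGC match on each strand and was in 0 of 33 chain windows and in 0.0365% of all windows. The SMAD palindrome GTCTAGAC was in 0 of 33 and in 0.167%, and the AP-1 letters TGANTCA were in 1 of 33 and in 6.75%. A match is only a run of letters, and the absence of one says only that these letters are not in this window.

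Among the fibrillar chains, Col5a3 rose in both genotypes. It encodes a chain of type V collagen, which takes part in fibril assembly. Its level was 11.06, 10.08 and 10.33 on KO 10 h arrays, against 8.87, 8.86 and 9.43 on KO untreated arrays. The level was 10.08, 10.41 and 10.72 on WT 10 h arrays, against 8.84, 9.47 and 9.24 on WT untreated arrays. Every 10 h array was above every untreated array. The rise was 2.71-fold in KO (1.44 ± 0.25 SE, adjusted p = 3.5e-04) and 2.33-fold in WT (1.22 ± 0.25, adjusted p = 0.0014). At 1 h the KO arrays read 8.99, 8.80 and 9.29 and the WT arrays 8.90, 9.32 and 9.32, within the range of the untreated arrays apart from 1 KO array just below it.

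Col27a1, a fibrillar chain best known from cartilage, also rose in both genotypes. It read 8.42, 7.94 and 8.10 on KO 10 h arrays, against 7.23, 7.19 and 7.86 on KO untreated arrays. It read 7.56, 8.48 and 7.78 on WT 10 h arrays, against 7.19, 7.04 and 7.36 on WT untreated arrays. The groups did not overlap, although 1 KO untreated array came close to the lowest KO 10 h array. The difference was 0.73 ± 0.22 in KO (1.66-fold, adjusted p = 0.0162) and 0.74 ± 0.22 in WT (1.68-fold, adjusted p = 0.0151). The KO call was lost without KO embryo 1 (0.50, adjusted p = 0.209) or KO embryo 2 (0.72, adjusted p = 0.0709), and the WT call without WT embryo 2 (0.39, adjusted p = 0.227). The other probe set of Col27a1 moved the same way, by 1.15 in KO and 0.92 in WT.

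Col11a1, which encodes a chain of type XI collagen, a minor fibrillar collagen of cartilage and other tissues, fell. Its level was 11.36, 11.69 and 11.36 on KO 10 h arrays, against 11.89, 11.78 and 11.89 on KO untreated arrays. It was 11.28, 11.12 and 11.14 on WT 10 h arrays, against 11.74, 11.68 and 11.58 on WT untreated arrays. Each 10 h group lay below its own untreated group. It fell by 0.39 in KO (± 0.10 SE, 0.764-fold, adjusted p = 0.0070) and by 0.49 in WT (± 0.10, 0.714-fold, adjusted p = 0.0016). The KO call was lost without KO embryo 1 (adjusted p = 0.108) or KO embryo 3 (adjusted p = 0.101), at -0.31 each. A second Col11a1 probe set gave -0.23 in KO and -0.31 in WT, with adjusted p over all probe sets of 0.215 and 0.0891.

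Col11a2, the partner chain in type XI collagen, passed in KO alone and was close to the filter level of 4.16 to 4.25. It read 4.24, 4.07 and 4.27 on KO 10 h arrays, against 3.73, 4.04 and 3.89 on KO untreated arrays. On WT 10 h arrays it read 4.04, 4.26 and 4.25, against 4.11, 3.91 and 4.05 on WT untreated arrays. It was above the filter on 4 arrays only, all of them at 10 h. The difference was 0.31 ± 0.10 in KO (adjusted p = 0.0236) and 0.16 ± 0.10 in WT (adjusted p = 0.231), and the 2 responses were not shown to differ (KO minus WT 0.15 ± 0.14, adjusted p = 0.999). Col11a2 passed the filter only through 10 h arrays, on which it was high, so its call is a description. It was lost without KO embryo 1 (0.20, adjusted p = 0.242) or KO embryo 3 (0.27, adjusted p = 0.153).

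Col1a1 and Col1a2 encode the chains of type I collagen, the main fibril of skin, tendon and bone. Col1a1 read 13.73, 13.86 and 13.86 on KO 10 h arrays, against 13.88, 13.61 and 13.99 on KO untreated arrays. It read 13.70, 13.94 and 13.73 on WT 10 h arrays, against 14.03, 13.86 and 13.77 on WT untreated arrays. The groups overlapped in both genotypes, with differences of -0.01 ± 0.11 in KO and -0.09 ± 0.11 in WT (adjusted p = 0.954 and 0.540). Col1a2 read 14.02, 14.18 and 14.07 on KO 10 h arrays, against 14.11, 14.04 and 14.14 on KO untreated arrays. It read 14.01, 14.17 and 14.06 on WT 10 h arrays, against 14.09, 14.06 and 14.10 on WT untreated arrays. The Col1a2 groups overlapped as well, at -0.01 ± 0.08 in KO and 0.00 ± 0.08 in WT.

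Col3a1, the chain of type III collagen of distensible tissues, read 13.83, 13.74 and 13.79 on KO 10 h arrays, against 13.91, 13.79 and 13.82 on KO untreated arrays. Its WT 10 h arrays read 13.72, 13.93 and 13.67, against 13.91, 13.87 and 14.01 on WT untreated arrays. The difference did not pass the test, at -0.05 ± 0.08 in KO and -0.16 ± 0.08 in WT (adjusted p = 0.664 and 0.149). Col5a2, a type V chain that lies next to Col3a1 on chromosome 1, read 13.90, 13.90 and 13.77 on KO 10 h arrays, against 13.85, 13.80 and 13.75 on KO untreated arrays. It read 13.69, 13.97 and 13.75 on WT 10 h arrays, against 13.70, 13.79 and 13.81 on WT untreated arrays. Both pairs of groups overlapped, at 0.05 ± 0.08 in KO and 0.04 ± 0.08 in WT.

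Col5a1, the chain found in most type V collagen, read 13.31, 13.36 and 13.31 on KO 10 h arrays, against 13.35, 13.14 and 13.13 on KO untreated arrays. On WT 10 h arrays it read 13.25, 13.64 and 13.21, against 13.11, 13.06 and 13.33 on WT untreated arrays. The difference was 0.12 ± 0.12 in KO and 0.20 ± 0.12 in WT (adjusted p = 0.498 and 0.222), so that of the type V chains only Col5a3 passed with its brightest probe set. Col2a1, the chain of the main cartilage collagen, did not pass either, at -0.30 ± 0.34 in KO and -0.27 ± 0.34 in WT, and had the largest SE of the fibrillar chains.

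Col1a1, Col1a2, Col3a1 and Col5a2 were near the top of what the arrays reported. Their means lay within 1 log2 unit of 14.47, the highest value on any array. The dimmest of the 4 averaged 13.80, while the nearest chain outside that limit, Col5a1, averaged 13.23. There were 40 genes that bright (0.220% of all genes), of which 12.5% passed at 10 h in KO and 5.00% in WT. The largest difference among the 40 was 0.46 in KO and 0.48 in WT in either direction. How far the top of the range limits a difference was not tested.

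Dimmer probe sets of the same genes did not all read as the brightest did. For Col1a1 a probe set with a mean of 10.5 read 11.75, 10.53 and 11.34 on KO 10 h arrays, against 10.16, 10.55 and 10.27 on KO untreated arrays. It read 10.40, 12.12 and 10.49 on WT 10 h arrays, against 10.03, 9.93 and 10.10 on WT untreated arrays. The WT groups did not overlap, with 1 WT 10 h array far above the others, and the KO groups overlapped by 1 array. Its difference was 0.88 ± 0.35 in KO and 0.99 ± 0.35 in WT, with adjusted p over all probe sets of 0.0721 and 0.0470. For Col3a1 a probe set with a mean of 10.6 read 10.38, 9.72 and 10.38 on KO 10 h arrays, against 10.87, 10.50 and 10.83 on KO untreated arrays. It read 10.17, 10.52 and 9.82 on WT 10 h arrays, against 10.89, 10.71 and 11.14 on WT untreated arrays. The 10 h arrays lay below the untreated arrays in both genotypes, by differences of -0.58 ± 0.20 in KO and -0.74 ± 0.20 in WT (adjusted p = 0.0381 and 0.0106). The 2 dimmer sets of Col5a1 gave 0.29 in KO and 0.37 in WT (adjusted p = 0.126 and 0.0519), and 0.54 in KO and 0.45 in WT (adjusted p = 0.0143 and 0.0386). The further sets of Col1a2 and Col5a2 did not pass, at 0.07 and 0.19 in KO and -0.03 and 0.01 in WT for Col1a2, and at 0.06 in KO and 0.04 in WT for Col5a2. Dimmer sets thus moved up for Col1a1 in WT and for 1 of 2 sets of Col5a1, down for Col3a1, and passed in neither genotype for Col1a2 and Col5a2. The parts of the transcripts that these sets probe were not known.

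**Figure D2:**
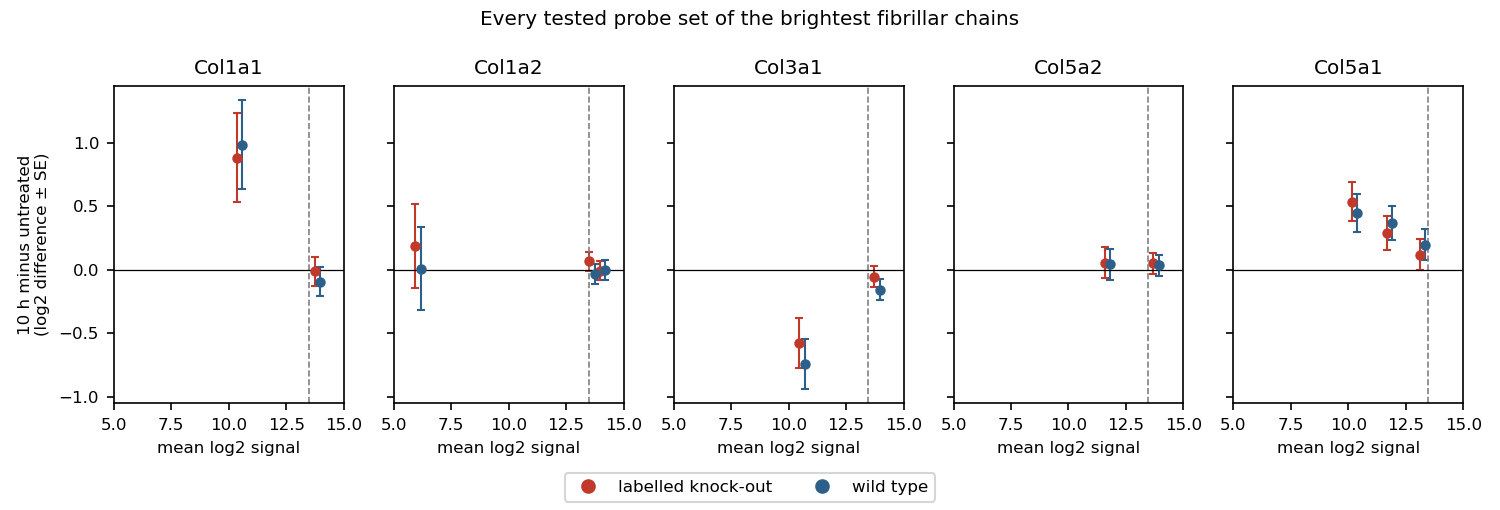
Difference at 10 h (log2, ± SE) against mean log2 signal over the 18 arrays for every tested probe set of 5 bright fibrillar chains, KO left of WT at each set. The dashed line at 13.47 is 1 log2 unit below the highest value on any array; the bright sets of Col1a1 and Col3a1 lie near 0, while their dimmer sets lie at 0.88 and 0.99 for Col1a1 and at -0.58 and -0.74 for Col3a1.

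Type IV chains form the network of the basement membrane. Col4a5, a chain of its more specialised networks, fell in both genotypes. Its level was 9.03, 8.94 and 9.19 on KO 10 h arrays, against 9.64, 9.66 and 9.49 on KO untreated arrays. It was 9.33, 9.24 and 8.72 on WT 10 h arrays, against 9.63, 9.28 and 9.59 on WT untreated arrays. The KO groups did not overlap and the WT groups did, by 1 array. It fell by 0.54 in KO (± 0.14 SE, adjusted p = 0.0080) and by 0.40 in WT (± 0.14, adjusted p = 0.0431), and the WT call was lost in 5 of the 6 fits that each left out an embryo, all but that without WT embryo 2. The WT difference was -0.16 without WT embryo 3 (adjusted p = 0.439) and -0.45 without WT embryo 1 (adjusted p = 0.0691). The KO call was lost without KO embryo 1 (-0.51, adjusted p = 0.0774) or KO embryo 2 (-0.46, adjusted p = 0.0889). Its other probe set gave -0.39 in KO and -0.38 in WT (adjusted p over all probe sets 0.0386 and 0.0466).

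The ubiquitous chains Col4a1 and Col4a2, which are neighbours on chromosome 8, did not pass. Col4a1 read 12.24, 12.61 and 12.52 on KO 10 h arrays, against 12.33, 12.29 and 12.64 on KO untreated arrays. It read 12.45, 12.39 and 12.55 on WT 10 h arrays, against 12.41, 12.33 and 11.98 on WT untreated arrays. Its differences were 0.04 ± 0.13 in KO and 0.22 ± 0.13 in WT. Col4a2 read 11.99, 12.08 and 12.10 on KO 10 h arrays, against 12.14, 11.95 and 12.28 on KO untreated arrays. It read 12.03, 11.92 and 11.98 on WT 10 h arrays, against 12.24, 11.91 and 11.82 on WT untreated arrays, and its differences were -0.07 ± 0.12 in KO and -0.01 ± 0.12 in WT. Col4a6, the neighbour of Col4a5 on the X chromosome, gave 0.05 ± 0.12 in KO and 0.07 ± 0.12 in WT at levels from 4.58 to 5.23.

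Of the type VI chains, which make beaded microfibrils around cells, only Col6a3 passed. It read 11.63, 11.51 and 11.78 on KO 10 h arrays, against 11.17, 10.77 and 11.28 on KO untreated arrays. It read 11.74, 11.97 and 11.99 on WT 10 h arrays, against 11.29, 11.50 and 11.49 on WT untreated arrays. The 10 h arrays lay above the untreated arrays in both genotypes, by 0.57 ± 0.13 in KO (1.48-fold, adjusted p = 0.0032) and 0.47 ± 0.13 in WT (1.39-fold, adjusted p = 0.0113). The WT call was lost without WT embryo 2 (0.47, adjusted p = 0.0651) or WT embryo 3 (0.46, adjusted p = 0.0695).

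Col6a1 and Col6a2, the partners of Col6a3 in the type VI molecule and neighbours on chromosome 10, varied between embryos. Col6a1 read 11.08, 10.72 and 11.04 on KO 10 h arrays, against 11.39, 10.83 and 11.51 on KO untreated arrays. It read 10.79, 11.48 and 10.87 on WT 10 h arrays, against 11.43, 11.13 and 11.65 on WT untreated arrays. The differences were -0.30 ± 0.22 in KO and -0.36 ± 0.22 in WT (adjusted p = 0.340 and 0.232). Col6a2 read 11.16, 10.65 and 11.09 on KO 10 h arrays, against 11.27, 10.69 and 11.21 on KO untreated arrays, with KO embryo 2 the lowest in both. It read 11.06, 11.84 and 10.83 on WT 10 h arrays, against 11.11, 10.92 and 11.76 on WT untreated arrays. The high WT array was number 3 when untreated and number 2 at 10 h, and the differences were -0.09 ± 0.27 in KO and -0.02 ± 0.27 in WT.

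None of the 7 tested fibril-associated chains passed in KO, and Col20a1 alone passed in WT. Col12a1, a chain that coats fibrils in dense connective tissue, read 10.36, 9.89 and 10.21 on KO 10 h arrays, against 10.07, 9.84 and 9.21 on KO untreated arrays. It read 10.13, 10.53 and 9.73 on WT 10 h arrays, against 9.58, 9.73 and 10.13 on WT untreated arrays. The groups overlapped, with 0.44 ± 0.24 in KO and 0.32 ± 0.24 in WT (adjusted p = 0.178 and 0.334). Col14a1, a related fibril-coating chain, read 9.37, 8.26 and 9.25 on KO 10 h arrays, against 9.74, 8.30 and 9.37 on KO untreated arrays. It read 9.26, 8.85 and 8.42 on WT 10 h arrays, against 9.43, 8.66 and 8.99 on WT untreated arrays. KO embryo 2 was the lowest in both conditions, and the differences were -0.18 ± 0.41 in both KO and WT.

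Col20a1 was dim, at 4.94, 4.61 and 4.77 on KO 10 h arrays, against 4.60, 4.80 and 4.72 on KO untreated arrays. It read 4.76, 5.11 and 5.04 on WT 10 h arrays, against 4.74, 4.37 and 4.49 on WT untreated arrays. The difference was 0.06 ± 0.12 in KO (adjusted p = 0.727) and 0.44 ± 0.12 in WT (adjusted p = 0.0099). The responses were not shown to differ (KO minus WT -0.37 ± 0.17, adjusted p = 0.999), and the other 2 tested probe sets gave 0.06 and -0.09 in WT. The WT call was lost without WT embryo 2 (0.29, adjusted p = 0.164) or WT embryo 3 (0.38, adjusted p = 0.106). Col9a1, Col9a3, Col16a1 and Col22a1 lay between 0.07 and 0.20 in KO and between 0.03 and 0.25 in WT, and none passed.

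The network chains held the largest response of all 31. Col8a2 and Col8a1 encode the chains of type VIII collagen, a short-chain collagen of vessel walls and of the membrane beneath the corneal endothelium. Col8a2 read 8.17, 8.22 and 8.35 on KO 10 h arrays, against 6.15, 4.76 and 6.25 on KO untreated arrays. It read 8.34, 8.09 and 8.13 on WT 10 h arrays, against 5.96, 4.90 and 5.76 on WT untreated arrays. The untreated arrays varied widely and the 10 h arrays did not, and every 10 h array lay well above every untreated one. The rise was 5.76-fold in KO (2.53 ± 0.39, adjusted p = 1.2e-04) and 6.26-fold in WT (2.65 ± 0.39, adjusted p = 9.1e-05). At 1 h the arrays read 6.66, 5.55 and 6.74 in KO and 6.37, 5.54 and 6.45 in WT. Each 1 h array was higher than the untreated array of its own embryo, but the differences of 0.60 ± 0.39 in KO and 0.58 ± 0.39 in WT did not pass (adjusted p = 1.00 and 0.904).

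Col8a1 rose less than its partner. It read 11.50, 11.65 and 11.74 on KO 10 h arrays, against 11.34, 10.97 and 11.37 on KO untreated arrays. It read 11.55, 11.81 and 11.44 on WT 10 h arrays, against 11.27, 11.03 and 11.07 on WT untreated arrays. The groups did not overlap, and the difference was 0.40 ± 0.14 in KO (1.32-fold, adjusted p = 0.0335) and 0.48 ± 0.14 in WT (1.39-fold, adjusted p = 0.0141). The KO call was lost without KO embryo 2 (0.26, adjusted p = 0.234), KO embryo 3 (0.42, adjusted p = 0.103) or WT embryo 3 (0.40, adjusted p = 0.0539), and the WT call without WT embryo 2 (0.33, adjusted p = 0.142). Its other 2 probe sets were also positive, at 0.30 and 0.91 in KO and 0.22 and 0.50 in WT, but did not pass. Col10a1, the collagen of hypertrophic cartilage, had the largest SE of the 31 chains and gave -0.29 ± 0.52 in KO and -0.24 ± 0.52 in WT.

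Col7a1, the chain of the anchoring fibrils that tie the skin's basement membrane to the dermis, rose. It read 8.31, 8.72 and 8.26 on KO 10 h arrays, against 7.57, 8.06 and 8.21 on KO untreated arrays. It read 8.28, 8.64 and 8.87 on WT 10 h arrays, against 7.87, 8.16 and 7.88 on WT untreated arrays. The groups did not overlap, though the margin in KO was narrow, and the difference was 0.48 ± 0.18 in KO (1.40-fold, adjusted p = 0.0450) and 0.63 ± 0.18 in WT (1.55-fold, adjusted p = 0.0122). The KO call was lost without KO embryo 1 (0.35, adjusted p = 0.217), KO embryo 2 (0.40, adjusted p = 0.171), WT embryo 2 (adjusted p = 0.0641) or WT embryo 3 (adjusted p = 0.0581), and the WT call without WT embryo 3 (0.45, adjusted p = 0.162). The other chains tested were the multiplexins Col15a1 and Col18a1 and the membrane-spanning Col25a1, and none of them passed. Col15a1 came nearest, at 0.00 ± 0.13 in KO and 0.31 ± 0.13 in WT (adjusted p = 0.0835).

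**Figure D3:**
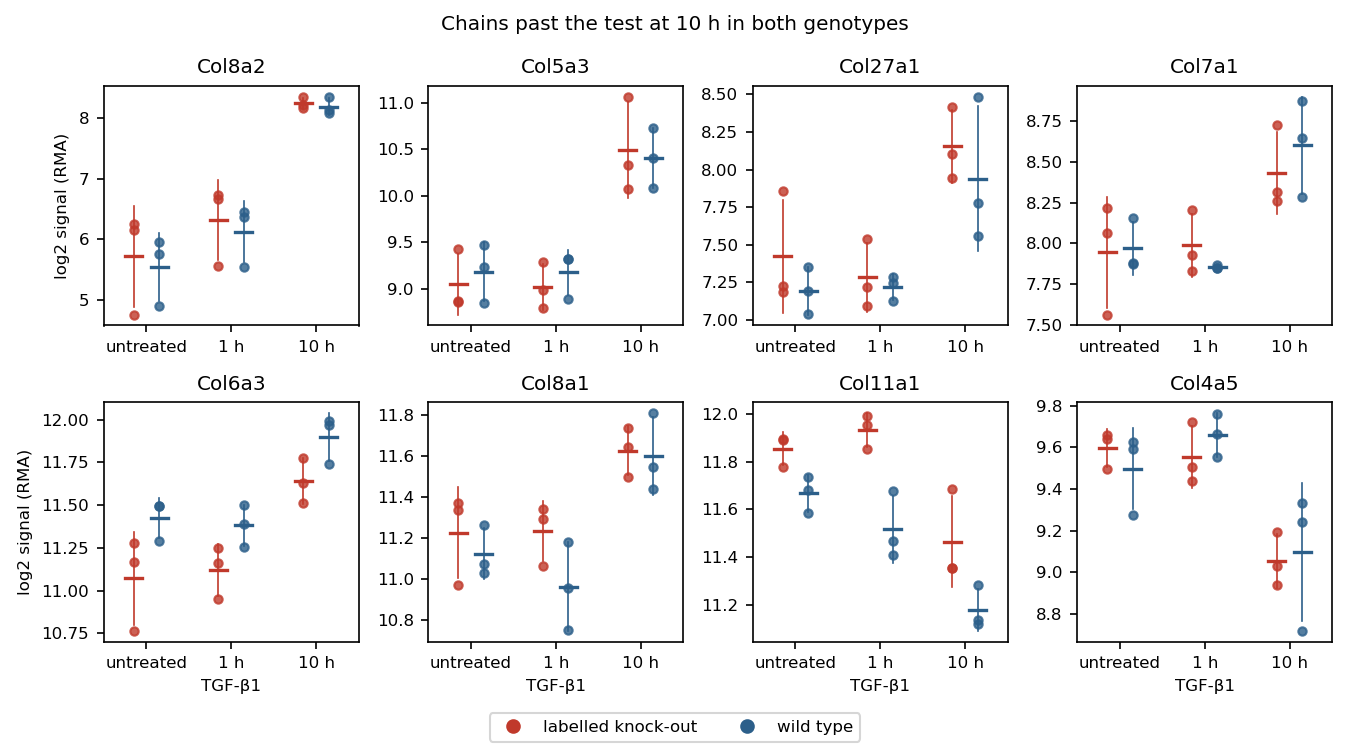
Log2 signal on each array for the 8 chains that passed at 10 h in both genotypes, untreated, at 1 h and at 10 h, with KO left of WT; horizontal bars are group means and vertical bars the SD (3 arrays a group), and each panel has its own vertical scale. There 6 panels rise and the Col11a1 and Col4a5 panels fall at 10 h, while the 1 h arrays mostly lie close to the untreated ones.

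Some of these calls were lost when 1 embryo was left out. Such a fit has fewer arrays, and a call could be lost with its difference little changed. For Col6a3 in WT that difference was 0.47 without WT embryo 2, as with all embryos. For Col7a1 in KO the call was also lost without WT embryo 2 or 3, which are not in that comparison. Col8a2 and Col5a3 passed in both genotypes whichever 1 of the 6 embryos was left out, as did Col6a3 in KO and Col11a1 in WT. The count of 9 in KO became 4 without KO embryo 1 and 5 without KO embryo 2. In these fits the WT 10 h arrays were left out by their labelled numbers. A further 11 alternatives of filter, probe set, normalization, model or baseline kept all embryos. Under these, Col7a1 in KO passed in 6, and Col8a1 in KO and Col4a5 in WT in 8 each. The other calls of the 8 chains that passed in both genotypes were kept in 10 or 11.

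At 1 h no chain passed in either genotype. In KO 0 of 31 passed, against 0.49% of all tested genes, and in WT 0 of 31 passed, against 0.585%. At an unadjusted p under 0.05 there were 0 chains in KO and 1 in WT, which was Col20a1 (0.27 ± 0.12, adjusted p = 0.688), while 3.74% of all tested genes in KO and 6.87% in WT were under that p. The next smallest p in WT belonged to Col12a1, at -0.47 ± 0.24 (adjusted p = 0.776), and then to Col8a2. In KO the smallest were those of Col8a2, Col4a6 (-0.16 ± 0.12) and Col9a3 (-0.16 ± 0.14), each with an adjusted p of 1.00. In each genotype, 29 of 31 chains had a 95% interval of the 1 h difference that stayed inside 2-fold up or down.

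Between genotypes no chain passed in any condition. The count was 0 of 31 among untreated cells, at 1 h, at 10 h and for the mean of each embryo over its 3 cultures, and limma called 0 (0.0%) of all tested genes in each. At an unadjusted p under 0.05 there were 2 chains untreated, 2 at 1 h, 1 at 10 h and 3 for the embryo means. Embryo means rest on the labelled numbers. Over all tested genes these shares were 3.36% untreated, 6.18% at 1 h, 5.27% at 10 h and 4.82% for the embryo means. The same chains, Col11a1, Col2a1 and Col6a3, had the 3 smallest p in all 4 comparisons. Those of untreated, 1 h and 10 h cells share their embryos and are not independent.

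Col11a1 was higher on every KO array than on every WT array of the same condition. The differences were 0.19 ± 0.10 untreated, 0.41 ± 0.10 at 1 h and 0.28 ± 0.10 at 10 h (adjusted p = 1.00, 0.561 and 0.912). At 1 h it read 11.95, 11.85 and 11.99 in KO, against 11.68, 11.47 and 11.41 in WT. For the embryo means it was 0.30 ± 0.07 (adjusted p = 0.711, and 1.00 with the WT 10 h arrays 2 and 3 exchanged), and the second Col11a1 probe set gave 0.17 ± 0.13 untreated. Col2a1 read 9.57, 9.47 and 10.54 on KO untreated arrays, against 9.34, 8.74 and 9.27 on WT untreated arrays. At 1 h it read 9.68, 9.66 and 10.55 in KO, against 9.35, 8.53 and 9.35 in WT, and at 10 h 9.05, 9.61 and 10.01 in KO, against 8.88, 9.16 and 8.48 in WT. The groups did not overlap untreated and at 1 h and overlapped at 10 h, with differences of 0.74, 0.89 and 0.71 (± 0.34 each). The embryo means differed by 0.78 ± 0.24 (adjusted p = 0.903), by 0.78 ± 0.28 with those 2 WT arrays exchanged, and by 0.49 without KO embryo 3.

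Col6a3 ran the other way, with -0.36 ± 0.13 untreated, -0.26 ± 0.13 at 1 h and -0.26 ± 0.13 at 10 h. Its groups did not overlap untreated and at 1 h, but the margins were narrow. The highest KO array read 11.280 against 11.292 on the lowest WT array untreated, and 11.248 against 11.255 at 1 h. The Col6a3 embryo means differed by -0.29 ± 0.11 (adjusted p = 0.976, and 1.00 with those 2 WT arrays exchanged) and by -0.19 without KO embryo 2. In all, the groups of 3 chains did not overlap when untreated, of 7 chains at 1 h and of 1 chain at 10 h. Over all tested genes the shares were 7.93% untreated, 14.3% at 1 h and 7.6% at 10 h. Col2a1 and Col11a1 are chains that cartilage uses. Of 9 chondrocyte markers other than collagens, 5 were tested and 0 passed between genotypes, as did 0 (0.0%) of all tested genes. That count therefore cannot tell these markers from other genes. Matn1, Hapln1, Cnmd and Cytl1 were below the filter on all arrays. The mean level of the 9 chondrocyte markers lay between 4.44 and 4.59 on KO untreated arrays and between 4.36 and 4.56 on WT untreated arrays. The macrophage markers had a median KO minus WT difference of -0.66 untreated. Of these 14 markers 0 passed, as did 0 (0.0%) of all tested genes, and their part in the chain differences was not tested.

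**Figure D4:**
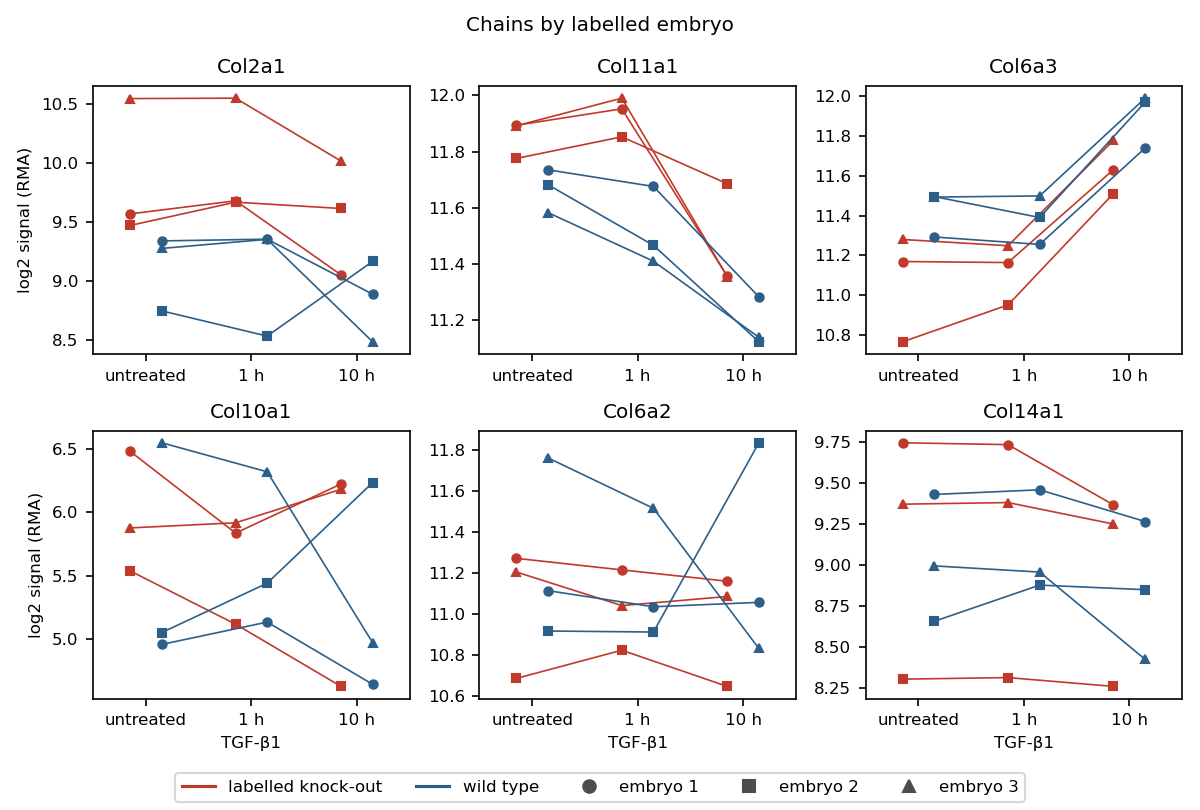
Log2 signal of 6 chains that varied between embryos or genotypes, untreated, at 1 h and at 10 h, with KO left of WT and a line for each labelled embryo; each panel has its own vertical scale. Col11a1 is higher in KO at every step and Col6a3 lower on average. The WT lines of embryos 2 and 3 cross between 1 h and 10 h for Col10a1, Col6a2, Col14a1 and Col2a1. They also cross where they lie close together for Col11a1 (11.12 and 11.14 at 10 h) and Col6a3 (11.495 and 11.493 untreated).

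The 10 h response itself was not shown to differ between genotypes for any chain. In the test of KO response minus WT response 0 of 31 passed, as did 0 (0.0%) of all tested genes, and 1 chain, Col20a1, had an unadjusted p under 0.05, as did 2.23% of all tested genes. The 95% interval of that difference stayed inside 2-fold up or down for 27 of 31 chains. The 4 with wider intervals were Col2a1, Col14a1, Col10a1 and Col8a2. For Col8a2 the interval ran from -1.29 to 1.05, and for Col5a3 from -0.53 to 0.97. At 1 h 0 of 31 passed and 26 of 31 intervals lay within 2-fold.

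Col10a1, Col6a2, Col14a1 and Col2a1 showed the embryo pattern described for the arrays as a whole. Col10a1 read 4.96, 5.05 and 6.55 for WT embryos 1 to 3 untreated and 5.14, 5.44 and 6.32 at 1 h, but 4.65, 6.24 and 4.97 at 10 h. In KO it read 6.48, 5.54 and 5.88 untreated, 5.84, 5.12 and 5.92 at 1 h and 6.22, 4.63 and 6.18 at 10 h. KO embryo 2 was thus the lowest in all 3 conditions, while the high WT array was number 3 at the first 2 steps and number 2 at the last.

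Collagen needs enzymes that hydroxylate, trim and cross-link it, and 29 of 34 listed genes of collagen processing were tested. At 10 h 8 rose and 2 fell in KO, and 8 rose and 2 fell in WT, with medians of 0.11 in KO and 0.14 in WT. The 10 of 29 in each genotype are close to the 34.7% in KO and 33.7% in WT over all tested genes. Loxl3, a cross-linking oxidase, rose by 0.80 in KO (adjusted p = 6.8e-04) and 0.77 in WT (adjusted p = 9.8e-04). Loxl1, another such oxidase, rose by 0.52 in KO and 0.51 in WT. Tll1, a proteinase that trims procollagen, rose by 1.32 in KO and 1.07 in WT. Fkbp7, an immunophilin of the endoplasmic reticulum, fell, with differences of -0.69 in KO and -0.53 in WT. Lox passed in KO and not in WT, and Pcolce2 in WT and not in KO. In the test of KO response minus WT response, 0 of all tested genes passed, so no listed gene was shown to respond differently.

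Of 12 tested receptors and enzymes of collagen breakdown, 2 rose and 1 fell in KO (34.7% of all tested genes passed), and 3 rose and 2 fell in WT (33.7% of all tested genes passed). Fap was the gene that fell in KO, and it fell in WT as well. Mmp9, a gelatinase, read 9.14, 6.51 and 6.41 on KO 10 h arrays, against 4.73, 4.61 and 4.73 on KO untreated arrays. It read 6.84, 5.92 and 7.19 on WT 10 h arrays, against 4.82, 4.79 and 4.80 on WT untreated arrays. It rose by 2.66 in KO (adjusted p = 6.8e-04) and 1.85 in WT (adjusted p = 0.0099), with 1 KO array far above the others. Itga2, a subunit of a collagen-binding integrin, rose by 0.88 in KO and gave 0.34 in WT (adjusted p = 0.211). The collagen receptor Ddr2 fell by 0.57 in WT and gave -0.37 in KO (adjusted p = 0.0515), and its relative Ddr1 rose by 0.33 in WT and gave 0.08 in KO.

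Among 14 tested partners of type IV collagen in the basement membrane, 3 rose and 3 fell in KO (34.7% of all tested genes passed), and 2 rose and 3 fell in WT (33.7% of all tested genes passed). Lama4, a laminin chain, fell, with differences of -1.10 in KO (adjusted p = 0.0019) and -1.30 in WT (adjusted p = 5.4e-04). Nid1, which links laminin to type IV collagen, fell, at -0.58 in KO and -0.63 in WT. The laminin chain Lama2 fell, at -0.31 in KO and -0.30 in WT. Pxdn, the peroxidase that makes the sulfilimine cross-link of type IV collagen, rose by 0.55 in KO and 0.48 in WT. No gene of the 3 lists passed at 1 h, where 0.49% of all tested genes passed in KO and 0.585% in WT. None passed between genotypes, as did 0.0% of all tested genes.

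Markers of cell types moved at 10 h too, and their part in the chain values was not tested. Over all tested genes 13.9% rose and 20.7% fell in KO, and 14.9% rose and 18.8% fell in WT. Of 12 fibroblast markers 0 rose and 4 fell in KO, and 1 rose and 5 fell in WT. Their mean level was 9.50 to 9.79 on KO 10 h arrays, against 10.15 to 10.36 on KO untreated arrays, and 9.74 to 9.86 on WT 10 h arrays, against 10.38 to 10.61 on WT untreated arrays. Of 7 tested epithelial markers 3 rose in each genotype, at a mean level over the list of 4.60 to 4.77 on KO 10 h arrays, against 4.33 to 4.44 on KO untreated arrays. In WT that level was 4.54 to 4.77 at 10 h, against 4.20 to 4.41 untreated. The keratinocyte regulator Trp63 was below the filter on all arrays. Of 14 macrophage markers 0 passed in KO and 1, Mrc1, fell in WT. Their mean level was 7.91 to 9.63 on KO 10 h arrays and 8.36 to 10.3 on WT 10 h arrays. Of 5 tested chondrocyte markers other than collagens, 0 passed in KO and 2 rose in WT. These were Acan, the core protein of cartilage aggrecan, with 0.66 in KO (adjusted p = 0.0699) and 1.07 in WT (adjusted p = 0.0058), and Snorc, with 0.22 in KO (adjusted p = 0.185) and 0.37 in WT (adjusted p = 0.0309). The mean level of the 9 markers was 4.54 to 4.78 on KO 10 h arrays and 4.62 to 4.92 on WT 10 h arrays. Of 3 tendon markers Scx, a tendon transcription factor, rose in both genotypes, by 0.99 in KO (adjusted p = 0.0016) and 1.03 in WT (adjusted p = 0.0013). Of 4 tested skeletal muscle markers 0 passed in KO and Des rose in WT, at 0.26 in KO (adjusted p = 0.216) and 0.42 in WT (adjusted p = 0.0457). Of the tested endothelial (4), osteoblast (2) and glial (3) markers 0 passed in either genotype.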

How the data were processed

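The deposited values are log2 expression summaries, which per the submitters' processing notes the authors made with RMA. The version of RMA was not given in the sources used here. The log2 scale was read from the values, which ran from 2.49 to 14.47. RMA makes the arrays' distributions alike, so a difference is relative to the other genes. The number of arrays, 3 a group, limits the precision. Array medians lay between 4.74 and 4.81, and arrays of a group correlated at 0.987 to 0.995.

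Of 45101 probe sets, 34958 had a single gene symbol in GEO's platform annotation, 932 had several and 9211 were unnamed and not used. The brightest probe set stood for each gene. A mean per group was fitted over all 18 arrays (12 residual degrees of freedom) with limma 3.58.1 in R 4.3.3, with moderated two-sided tests and Benjamini-Hochberg adjustment over 13679 genes at 0.05. The script was tested on simulated data. Promoter windows came from RefSeq for 33 chains, and neighbouring genes from the same build.

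The members, types and lists were chosen with earlier results of these data known. Values are given for every array for a fixed set of main chains and for chains that passed at 10 h. From each companion list up to 4 genes with the smallest p are named, and where fewer than 5 chains passed, the 3 with the smallest p. Col2a1, Col10a1, Fap and the chains at the edge of a count were named after their values were seen. The numbers pair arrays of the same embryo within a genotype per the labels, and the correlations of the deviations, within embryos and between genotypes, are given with the results. Whether the 3 cultures of an embryo were grown separately beyond that was not stated. The main fit treated the arrays of an embryo as independent. Its p-values measure the spread between arrays within a group, each labelled as a different embryo. Alternatives tried were other filters, probe sets, normalization, centring, models, blocks and baselines, and leaving out each embryo.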

Additional observations from a re-analysis of the deposited data

How the results depend on the processing

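With 19 alternatives, between 4 and 11 chains passed at 10 h in KO and between 6 and 12 in WT, against 9 in each. Leaving out 1 embryo at a time gave 4 to 9 in KO and 7 to 8 in WT. The count in KO was 4 without KO embryo 1 and 5 without KO embryo 2. The embryo as a replicate block gave 9 in KO and 9 in WT, the same chains, and changed no other call among the chains. With the WT 10 h arrays numbered 2 and 3 exchanged in that block, chosen after seeing the data, the counts were 11 and 11. Fits that leave out a WT embryo follow the labelled numbers. Fitting only the groups compared gave 6 and 6. Not counting Col11a2, chosen after seeing the data, gave 8 in KO and 9 in WT. The 1 h arrays as the baseline, also chosen after seeing the data, gave 7 in KO and 12 in WT. With the most variable probe set, or with every probe set tested, Col1a1 in WT was 0.99 at 10 h instead of -0.09, and another probe set of Col20a1 in WT gave -0.090 instead of 0.44. The cause was not tested. At 1 h, between genotypes and for the difference of the responses, 0 chains passed under each alternative run. Over all genes the 1 h counts ranged from 26 to 117 in KO, against 67, and from 38 to 149 in WT, against 80, and the KO against WT count at 10 h from 0 to 9. The block gave 101 genes at 1 h in KO, and, with the numbers paired across genotypes although the embryos differ, 1 gene between genotypes at 1 h and 6 at 10 h. Signal over background limits Col11a2 and Col20a1, which lay close to the filter, and the 11 chains below it.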
